A study of Rattus norvegicus with 10 samples.

Results

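The genes described here are 10 members of the cell's oxygen-sensing system, measured in the nasal transitional epithelium of rats given N,N-dimethyl-p-toluidine (DMPT). They are Hif1a, Epas1, Egln1, Egln3, Vegfa, Bnip3, Ddit4, Ddit4l, Ankrd37 and P4ha1. A member was every probe set of the array whose platform annotation named 1 of these symbols and no other, which gave 13 probe sets of 31042 tested and 10 genes of 14217. Epas1, Egln1 and Vegfa had 2 probe sets each. Male F344/N rats aged 5-6 weeks at the start received DMPT at 120 mg/kg/day by oral gavage in corn oil on 5 consecutive days, and controls received the corn oil vehicle (0 mg/kg/day). DMPT is an aromatic amine that speeds the setting of acrylic resins. The epithelium was cut from tissue sections by laser capture, RNA was amplified and labelled, and each of the 10 arrays, 5 per group, held 1 separately numbered animal. The labels do not say which animals shared a cage, so cage could not be modelled. The p-values treat the animals as independent, which cage mates may not be.

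Cells adjust to low oxygen through the hypoxia-inducible factors (HIFs). Their alpha subunits are made continuously, and in the presence of oxygen the prolyl hydroxylases of the Egln family mark them for destruction by the von Hippel-Lindau ubiquitin ligase. When oxygen falls, or the hydroxylases lose their iron or their co-substrate, the alpha subunits last, pair with Arnt and switch on genes for blood vessel growth, anaerobic glucose use, mitochondrial turnover and collagen hydroxylation. The system is thus set largely at the level of protein, which the arrays do not measure. In captured tissue a change in transcript per cell and a change in the share of a cell type cannot be told apart.

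DMPT was followed by a rise of both REDD genes, Ddit4l and Ddit4, and by a small, borderline fall of Ankrd37. The other 7 genes did not pass the test. Ddit4l was 7.65-fold and Ddit4 1.66-fold higher, and Ankrd37 was 1.30-fold lower. The comparison asks which transcripts differed at the end of dosing, and it used limma's moderated test across all probe sets with Benjamini-Hochberg adjustment and a threshold of 0.05. Differences are log2 DMPT minus vehicle and values after ± are standard errors of that fit, unless marked as SD. Of the 13 probe sets 2 were higher and 1 lower, beside 11.1% of all probe sets called (5.37% higher and 5.74% lower). The groups did not overlap for 4 of the 13, beside 11.0% of all probe sets (5.82% with DMPT above and 5.21% with DMPT below vehicle). The median difference of the 13 was 0.069, beside -0.017 over all probe sets, and 10 of the 13 lay above 0.

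**Figure D1:**
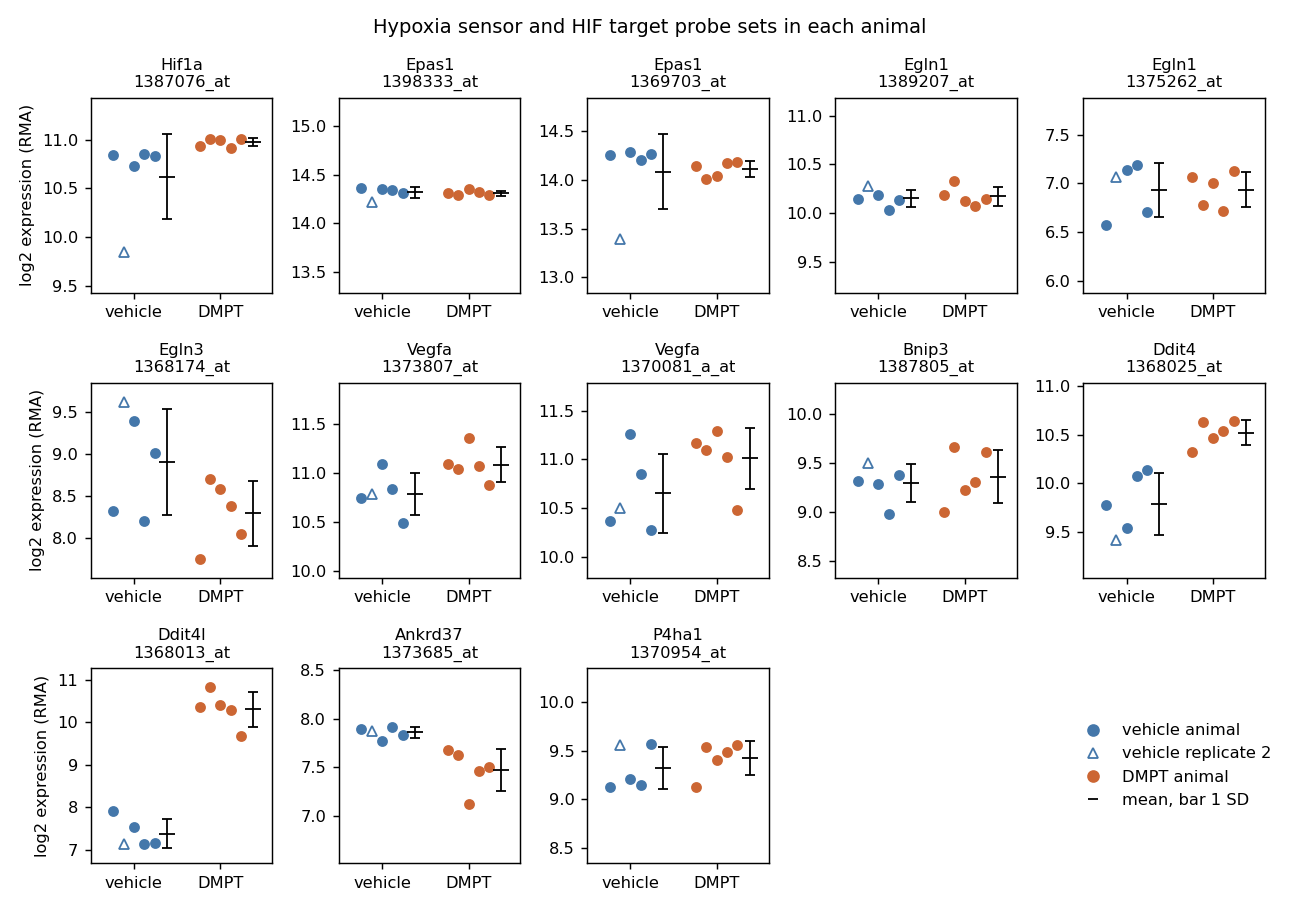
Log2 expression (RMA) of the 13 probe sets in each animal, with 1 point per array, the mean and 1 SD as bars, and vehicle replicate 2 as an open triangle. All 5 DMPT animals lie above all 5 vehicle animals for Hif1a, Ddit4 and Ddit4l and below them for Ankrd37.

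Array medians lay between 8.21 and 8.35 and lower quartiles between 6.37 and 6.51, the highest values of the arrays between 14.6 and 14.9. The 3' minus 5' signal of control transcripts, a measure of RNA quality in which a higher value means fewer 5' ends, was 1.17 to 1.50 with vehicle and 0.87 to 1.30 after DMPT (two-sided exact permutation p = 0.143). Vehicle replicate 2 had the highest value. It also stood apart for several members, named where they occur. The captured tissue carried epithelial markers: all 15 such genes lay above the array medians with vehicle, 4 of them rose and 0 fell, among them Krt5 at 0.60 ± 0.11 and Krt8 at 0.44 ± 0.088 (adjusted p = 0.00537 and 0.00831). The riser Krt7, named after its value was seen, overlapped between the groups and lost its call in 4 of the 10 omissions. Stromal genes were present as well: 6 of 15 lay below the array medians with vehicle and the rest above.

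Ddit4l and Ddit4 encode REDD2 and REDD1, small related proteins that restrain the growth kinase complex mTORC1. Ddit4 is a well-known HIF target and also answers to other stresses. Ddit4l is its paralog. Ddit4l read 7.90, 7.14, 7.55, 7.14 and 7.15 in vehicle replicates 1 to 5, and 10.35, 10.83, 10.41, 10.28 and 9.68 in DMPT replicates 1 to 5. The lowest DMPT animal, replicate 5, lay well above the highest vehicle animal, replicate 1. The difference was 2.94 ± 0.21 (adjusted p = 1.80e-05), and 0.0483% of all probe sets had a larger difference in either direction. Over the omission of each array in turn it ran from 2.81 to 3.09 and the call held in all 10.

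Ddit4 read 9.78, 9.42, 9.54, 10.07 and 10.14 with vehicle and 10.32, 10.63, 10.47, 10.54 and 10.64 after DMPT. Vehicle replicates 4 and 5 came closest to the DMPT animals, but the groups did not overlap. The SD was 0.32 with vehicle and 0.13 after DMPT. The difference was 0.73 ± 0.14 (adjusted p = 0.00811), and 5.73% of all probe sets had a larger one. Omitting each array in turn gave 0.64 to 0.82 and the call held in all 10. With the RNA quality measure as a covariate it was 0.62 (adjusted p = 0.0473).

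Ankrd37, which encodes a small ankyrin repeat protein and is a known HIF target, went the other way. It read 7.90, 7.87, 7.78, 7.91 and 7.83 with vehicle and 7.67, 7.62, 7.12, 7.46 and 7.50 after DMPT. The vehicle animals were tightly grouped (SD 0.056), whereas DMPT replicate 3 lay below the other DMPT animals. The difference was -0.38 ± 0.11 (adjusted p = 0.0418), at a level below the array medians. The call was lost when any array other than DMPT replicates 1 and 2 was left out, with differences from -0.43 to -0.29 and an adjusted p of up to 0.0874, so it is a borderline call. It was also lost with the RNA quality covariate (adjusted p = 0.0653).

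The bases before the transcription start of these 3 genes, and of Bnip3, a member that was not called, are shown because HIF binds DNA at sites with the core letters ACGTG or GCGTG. Each is the 250 bases upstream of the start in RefSeq's annotation of build GRCr8, printed 5' to 3' along the gene, with matches to either core on either strand in capitals; overlapping matches merge into 1 run.
Ddit4l promoter, chr2:228801457-228801706, plus strand: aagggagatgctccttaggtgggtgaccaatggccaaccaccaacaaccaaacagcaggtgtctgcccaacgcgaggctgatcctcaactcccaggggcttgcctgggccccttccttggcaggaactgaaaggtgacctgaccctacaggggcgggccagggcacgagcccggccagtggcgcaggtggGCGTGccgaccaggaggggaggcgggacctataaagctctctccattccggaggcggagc
Ddit4 promoter, chr20:28437038-28437287, minus strand: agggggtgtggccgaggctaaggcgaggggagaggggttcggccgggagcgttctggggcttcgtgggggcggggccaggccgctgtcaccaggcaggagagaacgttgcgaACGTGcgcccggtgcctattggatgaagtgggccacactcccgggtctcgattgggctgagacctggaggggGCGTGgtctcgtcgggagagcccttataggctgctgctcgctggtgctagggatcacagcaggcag
Ankrd37 promoter, chr16:53001257-53001506, plus strand: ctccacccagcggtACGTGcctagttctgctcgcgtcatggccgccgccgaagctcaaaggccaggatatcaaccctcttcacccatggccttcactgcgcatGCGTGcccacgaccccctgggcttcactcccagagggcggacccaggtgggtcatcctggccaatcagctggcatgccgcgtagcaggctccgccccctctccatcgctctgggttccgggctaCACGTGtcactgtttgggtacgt
Bnip3 promoter, chr1:203154963-203155212, minus strand: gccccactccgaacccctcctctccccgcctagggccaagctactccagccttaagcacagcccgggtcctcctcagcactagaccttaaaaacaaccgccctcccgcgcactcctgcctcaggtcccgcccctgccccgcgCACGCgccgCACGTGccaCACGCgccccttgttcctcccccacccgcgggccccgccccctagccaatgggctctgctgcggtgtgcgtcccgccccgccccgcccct
Ddit4l held 1 match (GCGTG) and Ddit4 held 2, 1 of each core. Ankrd37 and Bnip3 held 4 matches each, of which 2 in each gene are both strands of a palindrome, CACGTG. Of the 11 promoters of the 10 genes, 7 held a match, and these belonged to 7 genes. They were Hif1a, Egln1 and P4ha1 beside the 4 shown, whereas Epas1, Egln3 and the 2 starts of Vegfa held none. Over the 33465 promoters of the same length listed by RefSeq, 36.7% held a match, 16.6% for ACGTG and 25.9% for GCGTG. Genes that were higher, lower and not called are all among those with matches. A match describes the letters in this window and no more.

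The alpha subunits that carry HIF activity were measured on 3 probe sets, and none passed the test. Hif1a, the subunit present in most cells, read 10.84, 9.85, 10.73, 10.85 and 10.83 with vehicle and 10.94, 11.01, 10.99, 10.92 and 11.01 after DMPT. Every DMPT animal was above every vehicle animal, and the DMPT group was very tight (SD 0.042), but vehicle replicate 2 lay far below the rest. The difference was 0.35 ± 0.18 (adjusted p = 0.246). Without vehicle replicate 2 it was 0.16 ± 0.068, or 1.12-fold (adjusted p = 0.160), the groups still did not overlap, and 15.4% of all probe sets did not overlap in that comparison. The exact permutation test on all 10 arrays, two-sided and unadjusted, gave p = 0.00794, the smallest that 252 labelings allow. Groups that do not overlap always give this p, so it adds nothing to the lack of overlap, which 11.0% of all probe sets shared.

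Epas1 encodes HIF-2 alpha, the subunit prominent in endothelium and some epithelia. Its brighter probe set (1398333_at) read 14.36, 14.22, 14.35, 14.34 and 14.31 with vehicle and 14.31, 14.29, 14.35, 14.32 and 14.29 after DMPT. These values stand close to the highest on the arrays, where a change can be compressed. The difference was -0.0067 ± 0.073, with a 95% interval from -0.17 to 0.15. The second probe set (1369703_at) read 14.26, 13.39, 14.29, 14.20 and 14.27 with vehicle and 14.15, 14.00, 14.04, 14.17 and 14.18 after DMPT. Vehicle replicate 2 was again the low array, and it lay 0.86 below the mean of the other vehicle animals here but only 0.12 below on the brighter probe set. The difference of the second probe set was 0.027 ± 0.16, and without that array it was -0.15 ± 0.072 (adjusted p = 0.230), with the DMPT animals then all below the vehicle animals. Its direction therefore rests on 1 array.

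The oxygen sensors did not pass either. Egln1, the prolyl hydroxylase that does most to set HIF levels at normal oxygen, varied little between animals on its brighter probe set (1389207_at). It read 10.14, 10.28, 10.18, 10.04 and 10.13 with vehicle and 10.19, 10.33, 10.12, 10.07 and 10.15 after DMPT, and the groups overlapped, though DMPT replicate 2 lay above all vehicle animals. The difference was 0.020 ± 0.084 with a 95% interval from -0.16 to 0.20. The dimmer probe set (1375262_at) ranged from 6.57 to 7.19 with vehicle and from 6.72 to 7.12 after DMPT, with a difference of 0.0039 ± 0.14. Egln3, a hydroxylase gene that HIF itself induces, was the most variable member among vehicle animals. It read 8.32, 9.62, 9.39, 8.20 and 9.01 with vehicle and 7.75, 8.70, 8.58, 8.38 and 8.05 after DMPT. Vehicle replicates 2, 3 and 5 were above all DMPT animals, and replicates 1 and 4 lay among them. The SD with vehicle was 0.63, larger than that of 96.9% of all probe sets. The difference was -0.62 ± 0.28 (adjusted p = 0.205), 1.53-fold lower, and the 95% interval ran from -1.24 to 0.0042. It ran from -0.79 to -0.44 over the omissions, the smallest without vehicle replicate 2, and was -0.22 with the RNA quality covariate.

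**Figure D2:**
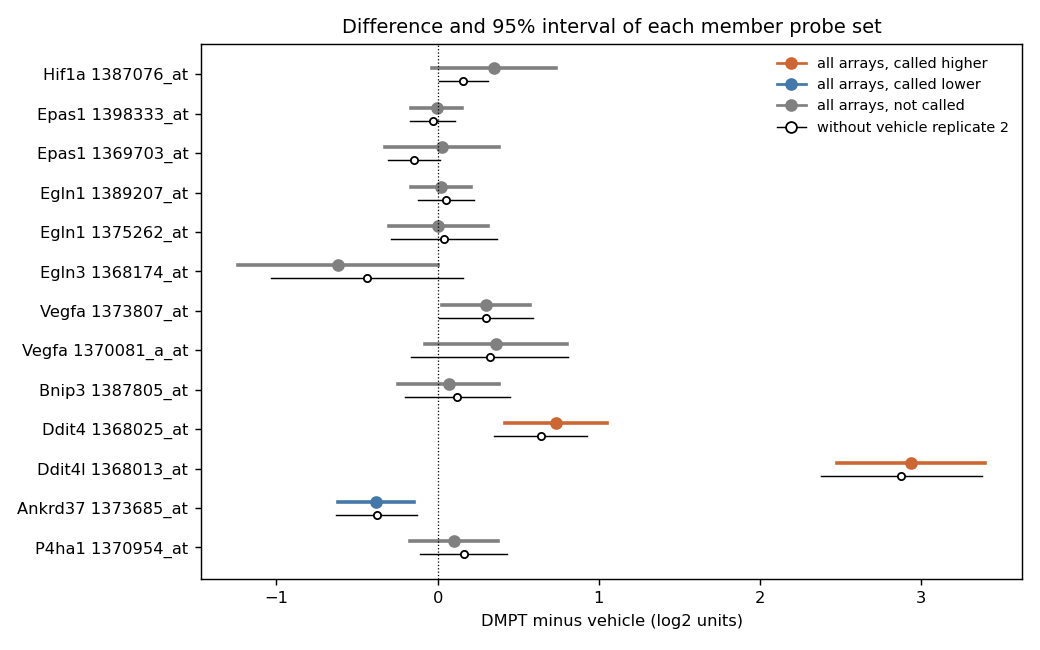
Difference of each probe set, DMPT minus vehicle in log2 units, with its 95% interval from the fit on all 10 arrays (thick) and without vehicle replicate 2 (thin, open circles). Ddit4l at 2.94 stands far from the others, and the interval of Hif1a narrows from the span -0.032 to 0.74 to the span 0.0087 to 0.31 when that array is left out.

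Among the remaining targets, Vegfa, the growth factor that draws new blood vessels, gave like readings on both probe sets. The first (1373807_at) read 10.75, 10.78, 11.09, 10.83 and 10.49 with vehicle and 11.09, 11.04, 11.36, 11.07 and 10.88 after DMPT. The second (1370081_a_at) read 10.36, 10.50, 11.26, 10.85 and 10.27 with vehicle and 11.16, 11.09, 11.29, 11.02 and 10.48 after DMPT. On both, replicate 3 was the highest and replicate 5 the lowest animal of its group, and the groups overlapped. The differences were 0.30 ± 0.12 (adjusted p = 0.156) and 0.36 ± 0.20 (adjusted p = 0.305), with intervals from 0.028 to 0.57 and from -0.080 to 0.80. Unadjusted, the first probe set had a limma p of 0.0334 and a two-sided exact permutation p of 0.0397.

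Bnip3, which marks mitochondria for removal by autophagy, read 9.31, 9.51, 9.29, 8.98 and 9.38 with vehicle and 9.00, 9.66, 9.23, 9.31 and 9.61 after DMPT. The ranges of the groups, 8.98 to 9.51 and 9.00 to 9.66, overlapped. The difference was 0.069 ± 0.14, with an interval from -0.24 to 0.38. P4ha1, a catalytic subunit of the prolyl hydroxylase that stabilises collagen, read 9.13, 9.56, 9.21, 9.15 and 9.57 with vehicle and 9.13, 9.54, 9.40, 9.49 and 9.56 after DMPT. The difference was 0.10 ± 0.12 with an interval from -0.17 to 0.37. No DMPT animal lay outside the vehicle range for P4ha1.

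Other genes of the pathway were taken from 7 lists, each gene by its brightest probe set. Of 81 measured genes, 13 were higher and 1 lower, beside 7.13% of all genes higher and 6.77% lower, and 55 differences lay above 0. In the machinery of sensing, 0 of 9 genes of oxygen sensing and HIF degradation and 0 of 7 partners and coactivators passed the limma test (2 and 0 at an unadjusted p under 0.05). The lowest adjusted p values in the first list belonged to the ubiquitin ligase gene Siah2 (-0.37 ± 0.15), the conjugating enzyme gene Ube2d1 (0.36 ± 0.16) and the elongin gene Eloc (0.12 ± 0.073), at 0.151, 0.182 and 0.339. In the second they belonged to Arnt2 (0.23 ± 0.13), the acetyltransferase gene Crebbp (0.17 ± 0.098) and Arnt (-0.12 ± 0.11), at 0.301, 0.330 and 0.577. The list medians were 0.053 and -2.53e-05, beside -0.0052 over all genes.

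Among genes by which HIF raises glucose use, 7 of 18 measured rose and 0 fell, with a median difference of 0.27. At an unadjusted p under 0.05 in limma, 10 were higher and 1 lower. Hk1, a hexokinase that traps glucose in the cell, read 9.41, 10.07, 9.70, 9.39 and 9.59 with vehicle and 10.80, 11.03, 11.06, 10.71 and 10.77 after DMPT. Its difference was 1.25 ± 0.14 (adjusted p = 0.000231). The glycolytic kinase gene Pgk1 rose by 0.57 ± 0.073 (adjusted p = 0.000609) and Pfkfb3, whose product speeds glycolysis through fructose 2,6-bisphosphate, by 0.52 ± 0.080 (adjusted p = 0.00191). Hk2, Pfkp, Gpi and Pdk1, named after their values were seen, were the other 4. Pdk1 (0.50 ± 0.14, adjusted p = 0.0404) overlapped between the groups and lost its call in 7 of the 10 omissions, Gpi in 3 and Pfkp in 1. The count was 4 without DMPT replicate 4, where Pfkp, Gpi and Pdk1 were lost, 4 with the RNA quality covariate and 11 without vehicle replicate 2. The 4 added by that omission were the glucose transporter gene Slc2a1, Aldoa, Eno1 and Slc16a3, also named after their values were seen. Eno1 read 9.83 in vehicle replicate 2 and 12.2 to 12.4 in the other vehicle animals, and its difference was 0.91 ± 0.42 with that array and 0.41 ± 0.085 without it (adjusted p = 0.205 and 0.0106). Ldha, which regenerates NAD+ in anaerobic glycolysis, differed by 0.20 ± 0.077 (adjusted p = 0.124).

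**Figure D3:**
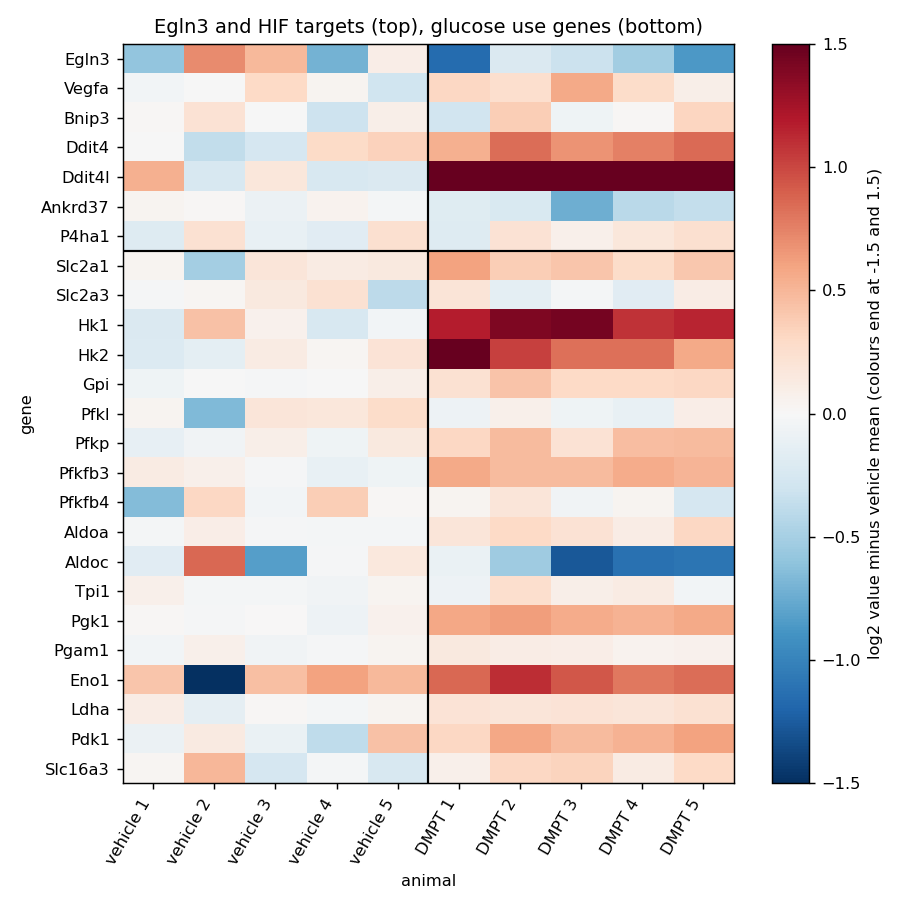
Log2 value of each gene in each animal less that gene's vehicle mean, for Egln3, Ddit4l and the HIF targets among the members (above the line) and for the 18 glucose use genes (below it). Hk1 and Pgk1 are raised in all 5 DMPT animals, Bnip3 and P4ha1 are mixed in both groups, and Eno1 is far below the rest in vehicle replicate 2; values beyond 1.5 in either direction share the end colours.

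Vascular and secreted targets split into those that rose and those that did not. Of 9 measured, 4 rose and 0 fell, and the median was 0.054. Adm, the vasodilator peptide adrenomedullin, read 7.77, 7.56, 7.98, 7.61 and 7.54 with vehicle and 8.82, 8.83, 9.17, 8.88 and 9.04 after DMPT, a difference of 1.26 ± 0.11 (adjusted p = 6.05e-05). Angptl4, a secreted inhibitor of lipoprotein lipase, rose by 0.59 ± 0.11 (adjusted p = 0.00483). The VEGF receptor gene Kdr rose by 2.06 ± 0.38, from 6.26 to 7.70 with vehicle to 7.99 to 9.83 after DMPT (adjusted p = 0.00563). The other riser was Flt1, also a VEGF receptor gene, at 0.87 ± 0.21 (adjusted p = 0.0232), named after its value was seen; it did not pass when vehicle replicate 1, vehicle replicate 4 or DMPT replicate 3 was left out, nor with the RNA quality covariate (0.69, adjusted p = 0.119). Kdr and Flt1 belong mainly to endothelium. Endothelial markers were higher in 8 of 15 genes and lower in 0, among them Pecam1 at 1.15 ± 0.17 and Esam at 1.19 ± 0.19 (adjusted p = 0.00160 and 0.00235). Of these 8, Pecam1, Esam, Plvap and Sox18 kept their calls in all 10 omissions, whereas Tie1 and Emcn lost theirs in 5 each, Erg in 4 and Egfl7 in 8. Icam2, an adhesion molecule gene and the brightest of the list with vehicle, differed by -0.94 ± 0.30 (adjusted p = 0.0651), and passed as lower without DMPT replicate 1 or vehicle replicate 3. These markers other than Pecam1 and Esam were named after their values were seen. The mean log2 level of the 15 was 6.69 to 7.55 in vehicle and 7.38 to 8.37 in DMPT animals; 14 of them were below the array medians with vehicle and 6 below the lower quartiles. Their part in the rise of Kdr and Flt1, or in the level of Epas1, was not tested.

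Of 20 targets that act on matrix, pH, mitochondria and other processes, 2 rose (10.0%) and 1 fell. Over all genes 7.13% were higher and 6.77% lower, so the counts of called genes are near the general share. At an unadjusted p under 0.05 in limma, 8 of the 20 were higher and 3 lower. The list median was 0.26, and 15 of the 20 differences lay above 0. Ndrg1, a stress and differentiation gene, rose by 1.43 ± 0.20 (adjusted p = 0.00100), from 9.28 to 9.99 with vehicle to 10.50 to 11.36 after DMPT. Ero1a, the oxidase that forms disulfide bonds in the endoplasmic reticulum, rose by 0.52 ± 0.13 (adjusted p = 0.0247), but did not pass when DMPT replicate 2 or 3 or vehicle replicate 1 or 3 was left out, nor with the RNA quality covariate (adjusted p = 0.0628). The collagen lysyl hydroxylase gene Plod1 fell by 0.61 ± 0.12 (adjusted p = 0.00617), with DMPT animals between 8.85 and 9.21 and vehicle animals between 9.36 and 9.89. Plod1 was also the 1 gene called among 8 of collagen hydroxylation, beside P4ha1. In that list 2 genes were higher and 2 lower at an unadjusted p under 0.05 in limma. The collagen chaperone gene Crtap differed by 0.35 ± 0.11 (adjusted p = 0.0605) and P4ha2 by -0.36 ± 0.12 (adjusted p = 0.0802). Crtap passed without vehicle replicate 2.

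**Figure D4:**
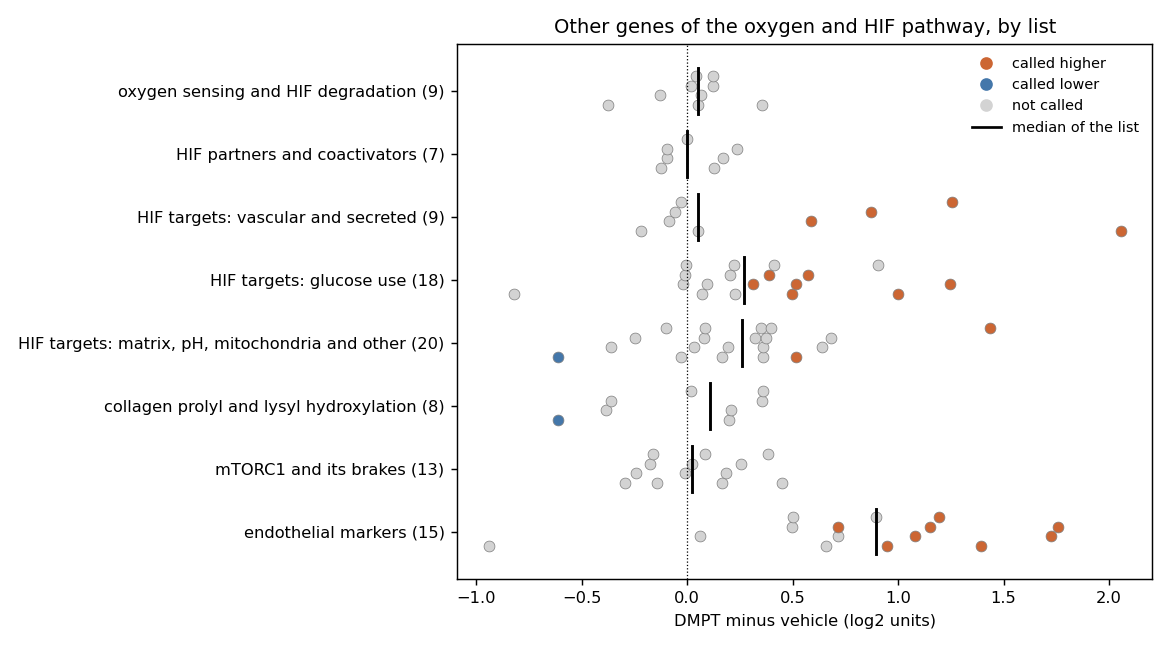
Difference of every measured gene of each list, DMPT minus vehicle in log2 units, with 1 point per gene, called genes in colour, the list median as a bar and the number of genes in brackets. The lists of glucose use and of vascular targets hold 7 and 4 called genes, all higher, whereas those of oxygen sensing, HIF partners and mTORC1 hold 0.

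Because both REDD proteins act on mTORC1, 13 genes of its pathway were read beside them. They included parts of the complex and its other brakes. Of these 13 genes 0 passed the limma test (2 at an unadjusted p under 0.05). The median was 0.021. The translation repressor gene Eif4ebp1 came nearest at 0.38 ± 0.11 (adjusted p = 0.0539) and passed without DMPT replicate 1. Castor2 differed by 0.45 ± 0.15 (adjusted p = 0.0864) and passed without DMPT replicate 2, and Rptor, the scaffold of the complex, differed by -0.30 ± 0.14 (adjusted p = 0.213). Markers of other cells that a captured section can hold were also read. Of 14 leukocyte genes 4 rose and 1 fell, among the risers Cd14 at 0.43 ± 0.076 and Cd68 at 0.87 ± 0.16 (adjusted p = 0.00435 and 0.00471). The riser C1qa lost its call in 8 of the 10 omissions and Lyz2, the gene that fell, in 9 (adjusted p = 0.0495 each with all arrays); both were named after their values were seen. Of 8 olfactory neuron genes Gap43 fell by 0.79 ± 0.18 and Adcy3 rose by 0.52 ± 0.15 (adjusted p = 0.0144 and 0.0432), and Adcy3 passed in 1 of the 10 omissions, that of vehicle replicate 2. Of 15 stromal genes 0 passed and 2 had an unadjusted p under 0.05 in limma (Fbln1 at 0.49 ± 0.16 and Rgs5 at 0.92 ± 0.35), though Fbln1 passed without vehicle replicate 2. Of 14 skeletal muscle genes 0 passed and 3 had an unadjusted p under 0.05 (lowest for Casq1 at -0.87 ± 0.26 and Tnni2 at 0.35 ± 0.12), though Casq1 passed without DMPT replicate 5.

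The genes whose profile over the 10 arrays lay nearest to each called member were found by the root mean square difference of log2 values less the vehicle mean. Nearest to Ddit4l were Ggt1, an ectoenzyme of glutathione breakdown, and Ereg, the growth factor epiregulin, at 0.38 log2 units each; their own differences were 2.79 ± 0.23 and 2.89 ± 0.27. Nearest to Ddit4 were Myo5a, a transport myosin, and Gpcpd1, a phosphodiesterase of glycerophosphocholine, at 0.15 each, with differences of 0.80 ± 0.10 and 0.77 ± 0.16. Nearest to Ankrd37 were Vps39, part of a lysosomal tethering complex, and Fam117a, at 0.084 and 0.091, with differences of -0.35 ± 0.10 and -0.40 ± 0.10. The profiles include the difference between the groups, so genes with a like shift are near by construction.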

How the data were processed

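The authors deposited log2 expression values per probe set of an Affymetrix rat array, made with RMA per the submitters' processing notes; RMA corrects background, equalises array distributions and summarises probes, which can compress changes near the top and bottom of the range. The RMA version, any probe filter and the genome build were not given in the sources used here. Arrays have no read depth, and their number limits precision.

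Of 31099 probe sets, 57 controls were set aside. Platform annotation gave 1 symbol to 20826, several to 436 and none to 9780; only the first were named. A gene outside the members was represented by its brightest probe set. Groups came from the titles. Limma 3.58.1 in R 4.3.3 (lmFit, eBayes, no covariate) was fitted on all 31042 probe sets, and was tested on simulated data. The authors used ORIOGEN, per the series' design text; it was not run. Exact permutation tests used all 252 labelings (smallest two-sided p 0.00794). Animals differ between groups, and same-numbered arrays correlated at -0.067 to 0.23 after removal of group means, so the numbers were not taken as pairs.

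Members and lists were chosen with earlier results of these data known. Named genes were every member probe set, the 3 genes of each pathway list and 2 of each marker list with the smallest p, and the 2 nearest profiles of each called member; others are marked. Listed genes without a probe set named by their symbol alone, among them Hif1an, Sirt1, Gapdh, Cdh5 and Robo4, were not analysed here. Alternatives were the omission of each array, the replicate number as a block, an intensity trend with robust priors, array weights, median centring, omission of the dimmest quartile, RNA quality as a covariate, gene means over probe sets, and permutation.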

Additional observations from a re-analysis of the deposited data

Results flagged for a closer look

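In groups of 5, an array was set apart when its gap to the nearest other array, divided by the range of the group, exceeded 0.71. Chance sets apart about 1 group in 20, and 8 of the 132 groups examined (66 probe sets in 2 groups) had such an array. Vehicle replicate 2 was the array in 6 of the 8. It was the lowest vehicle animal for Hif1a, at 9.85 against 10.73 for the nearest, and for the second probe set of Epas1, at 13.39 against 14.20. It was also the lowest for 3 glucose use genes. Eno1 was at 9.83 against 12.21, Slc2a1 at 12.63 against 13.18, and the phosphofructokinase gene Pfkl at 9.83 against 10.54. For Aldoa it was the highest, at 13.20 against 13.08. The 66 probe sets did not take in every listed gene, so these counts hold only for the groups examined. Among genes left out, the same rule set vehicle replicate 2 apart as low for Elf3 (10.48 against 12.17) and Hsp90ab1 (13.24 against 13.87). It was set apart as high for Sesn1 (9.41 against 8.60). These genes were named after their values were seen. Over all probe sets vehicle replicate 2 was the lowest of the vehicle arrays in 24.1% and lay at least 0.9 log2 units below the mean of the others in 3.72%. The same shares were not computed for the other vehicle arrays, so by themselves they do not show whether it was low across the array. Its array median, 8.35, and lower quartile, 6.51, were the highest of the 10 arrays, and its highest value, 14.6, was the lowest. By its median and lower quartile it was thus not a low array. Its RNA quality measure, 1.50, was the highest of the 10 arrays. The part of RNA quality in these low values was not tested. Apart from that array, Eif4ebp1 was low in DMPT replicate 1, at 10.67 against 10.96, and Krt5 was high in vehicle replicate 1, at 12.86 against 12.55.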

How the results depend on the processing

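Of 221 recomputed results of the 13 member probe sets (17 alternatives each), 189 kept their direction and side of the threshold. Of the other 32, 18 changed sign, 12 lost the call (all Ankrd37) and 2 passed (Hif1a and the first Vegfa probe set under the unadjusted permutation test). All 18 sign changes were in differences that were not called. An intensity trend, the replicate block, omission of the dimmest quartile and permutation leave the difference itself as it was. Under those alternatives only the call could change. Epas1 on 1398333_at was 0.033 with centred arrays and ran from -0.031 to 0.0036 over omissions. Epas1 on 1369703_at was -0.18 with the RNA covariate, -0.12 with array weights and -0.15 to 0.079 over omissions. Egln1 on 1389207_at ran from -0.019 to 0.051 over omissions; on 1375262_at it was -0.048 with the RNA covariate, -0.0090 with array weights and -0.087 to 0.068 over omissions. Bnip3 ran from -0.0086 to 0.16. The 2 member rises kept their calls in all alternatives run. The number of lower member probe sets was 0 with the RNA covariate, centred arrays, an intensity trend or the replicate block, and 0 to 1 over omissions.

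With the RNA covariate the lower probe sets numbered 951 in all; over omissions the lower count ran from 1022 to 1886 and the higher from 1137 to 2130. Higher pathway genes numbered 8 with the RNA covariate (4 of glucose use, 1 of matrix and other targets) and 9 to 18 over omissions. Over omissions glucose use gave 4 to 11 higher and 0 to 1 lower, matrix and other targets 1 to 2 higher, vascular targets 3 to 4, and collagen hydroxylation and mTORC1 0 to 1 each. The last 2 lists each had 1 higher with array weights, centred arrays, gene means over probe sets and without the dimmest quartile, and mTORC1 also with an intensity trend. Lower pathway genes numbered 2 with the replicate block (1 of glucose use, Aldoc) and 1 to 2 over omissions. As a block the replicate number also left Ankrd37 at an adjusted p of 0.0537; 2 of the 5 DMPT arrays correlated best with the vehicle array of their own number. The cause of these shifts was not tested. Signal near the array maximum limits what can be read from Epas1.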
